A study of Xenopus laevis with 39 samples.

Results

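The comparison described here is between whole olfactory bulbs of Xenopus laevis larvae collected 7 weeks after a transection and those collected 2 days after it. It rests on 6 of the 39 RNA libraries of the series, 3 at each time, chosen by the group in the sample titles and the count columns. The titles give larvae, whole bulb, the operation and the time, and the source names give the stage, premetamorphosis. They do not name the structure that was cut, which in this study is understood to be the olfactory nerve, and they name no strain, genotype, age or number of animals per library. Control bulbs of larvae without transection (3 libraries) and bulbs at 1 week (3 libraries) entered the same fit and are quoted as levels. No uninjured bulb as old as the 7-week bulbs was analysed here, so time since the cut and larval age cannot be told apart. No label ties a library to an animal of its own, so the p-values measure how far libraries spread, and that spread may be technical.

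The olfactory bulb is the first relay of smell. Axons of receptor neurons in the nose end there on mitral and tufted cells, the glutamatergic projection neurons, and granule and periglomerular interneurons, most of which release GABA and some dopamine, shape that relay. In larval frogs the bulb still grows by adding neurons from dividing progenitors along the ventricle. Cutting the olfactory nerve removes the receptor axons from the bulb, microglia clear the debris, and new receptor neurons can send axons back.

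Counted reads ran from 53450316 to 123488835 in the 6 libraries. Levels are given as CPM (counts scaled to a common library size) after TMM scaling, for libraries 1, 2 and 3 in that order. A gene was called where the edgeR quasi-likelihood test gave an adjusted p under 0.05. Of 31701 genes tested, 16150 were called (50.9%), 8115 higher at 7 weeks (25.6%) and 8035 lower (25.3%), and the median log2 fold change of all genes was 0.0087. The 3 libraries at 7 weeks lay all above or all below the 3 at 2 days for 17296 genes (54.6%). With so many genes called, each count of a gene group is read against these shares. The lists were chosen with earlier results of these data known. A share unlike that of all genes is therefore a description and not an independent test. Library 1 of the 7-week group stood apart from the others of its group, with Spearman correlations of 0.978 and 0.984 to them, against 0.992 between libraries 2 and 3. The frog carries .L and .S copies (homeologs) of many genes from an ancient genome duplication, and each copy is counted as a gene, so the copies within a list are not independent. Of the 9201 pairs with both copies tested, 3183 had both called, 2823 of them in the same direction and 360 in opposite directions. Markers of bulb neurons were present in every library, with summed levels of 2020 to 2170 CPM at 2 days and 1570 to 1790 CPM at 7 weeks for interneurons, beside 37.7 to 87.9 and 52.2 to 68.5 CPM for receptor neurons and nasal epithelium. In bulk tissue, fewer cells of a type and less RNA per cell cannot be told apart.

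**Figure D1:**
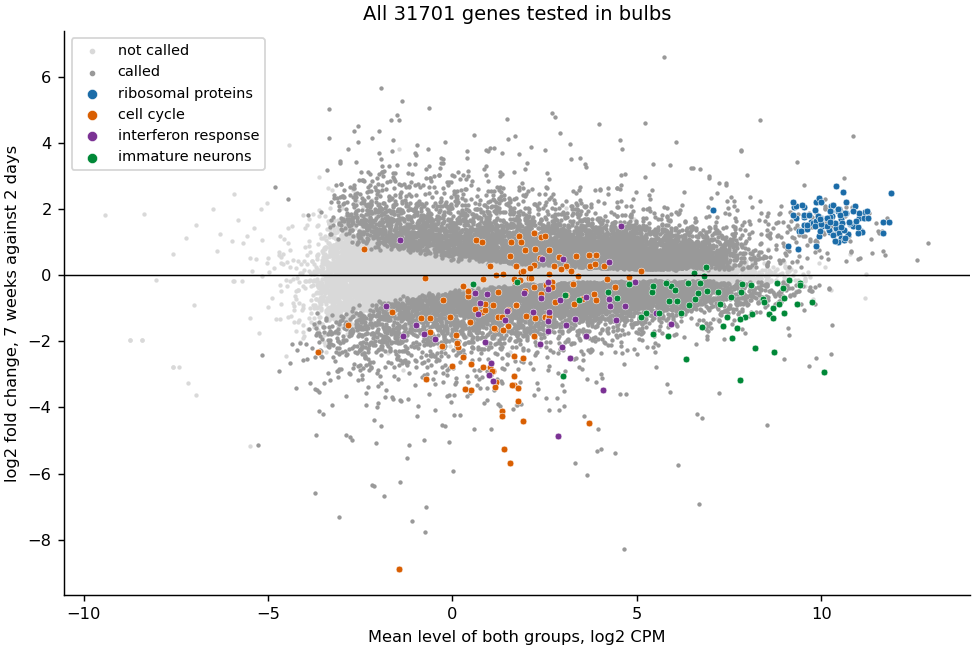
Each point is 1 gene, with the mean level of both groups (log2 CPM) on the x axis and the log2 fold change from 2 days to 7 weeks on the y axis. Dark grey points were called and coloured points are members of 4 lists. All 97 ribosomal protein genes lie above 0 at high levels, while 54 of 64 immature neuron genes and 37 of 45 interferon response genes were called lower.

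Most genes of bulb projection neurons were lower at 7 weeks. Of 49 tested genes of projection neurons and glutamatergic identity, 34 were called lower and 7 higher, with a median log2 fold change of -0.70. The count of higher members fell to 3 without 2-day library 2, to 2 without 2-day library 3 and to 4 without 7-week library 3. In the fit of all 39 libraries 1 was called higher. Among the 18 copies of 10 projection neuron markers, 13 were called lower and 2 higher, both of them copies of the T-box factor tbx21 (log2 0.76 ± 0.18 SE for tbx21.L, 0.69 ± 0.24 SE for tbx21.S). Summed over these copies, the level was 1090 to 1150 CPM at 2 days and 629 to 649 CPM at 7 weeks, beside 1050 to 1090 CPM in control bulbs. The T-box factor tbr1.S, which specifies glutamatergic neurons, stood at 66.7, 84.0 and 80.8 CPM at 2 days and 14.4, 19.4 and 19.3 CPM at 7 weeks. All 3 libraries at 7 weeks lay below all 3 at 2 days, a 4.35-fold difference (log2 -2.12 ± 0.15 SE, adjusted p = 4.87e-07). Its relative eomes.L, also a T-box factor of mitral and tufted cells, went from 66.4, 81.5 and 77.2 CPM to 14.6, 14.6 and 15.5 CPM. Both copies of slc17a7, the vesicular glutamate transporter VGLUT1, fell. The .L copy was at 172, 186 and 193 CPM at 2 days and 65.3, 66.1 and 69.7 CPM at 7 weeks (log2 -1.45 ± 0.07 SE). In control bulbs it was at 182, 197 and 189 CPM, and at 1 week at 129 to 131 CPM, between the levels at the other times.

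**Figure D2:**
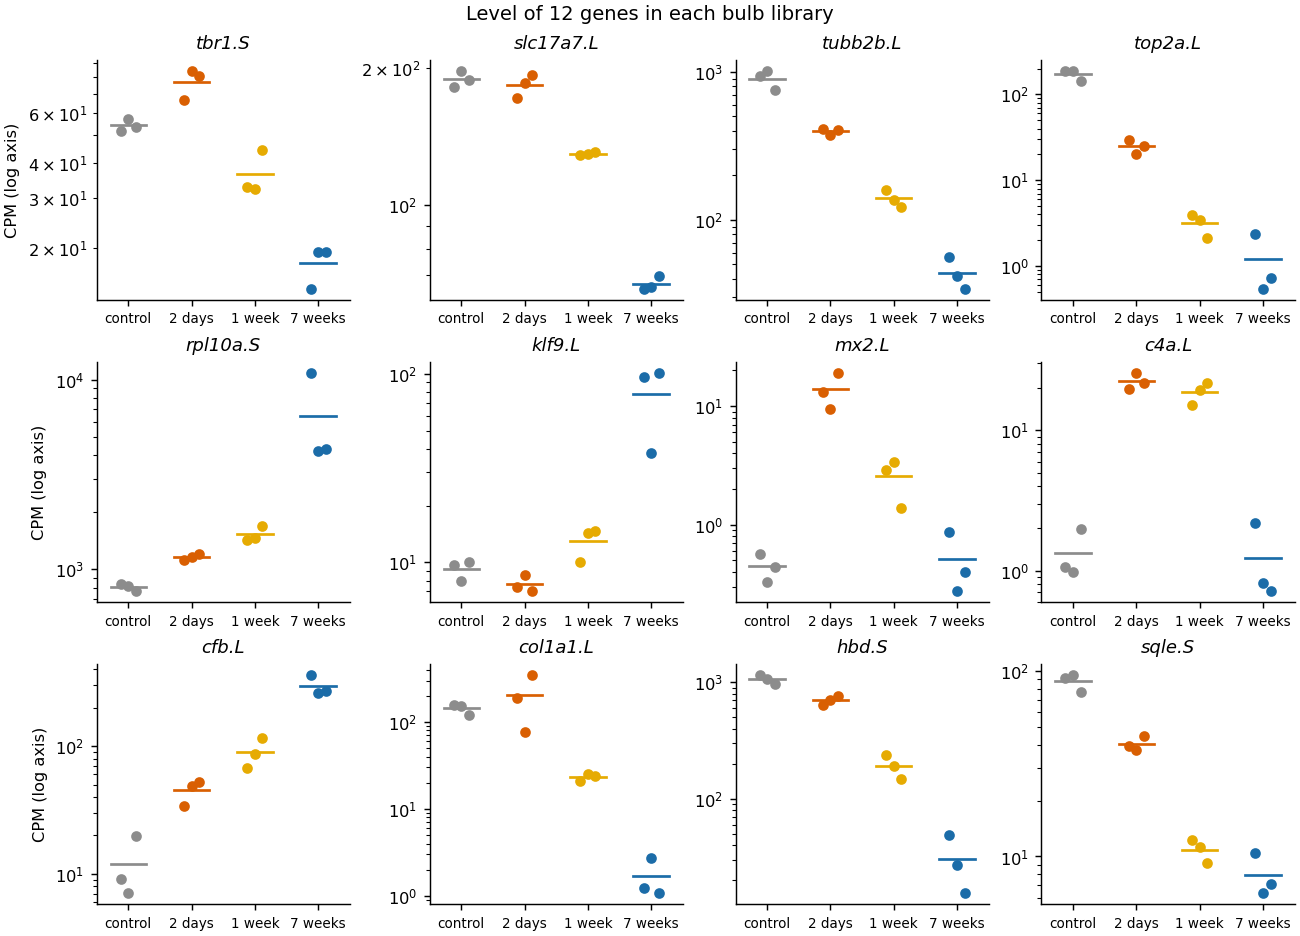
Level of 12 genes in each bulb library, in CPM on a log axis, for control bulbs and bulbs 2 days, 1 week and 7 weeks after transection. Points are libraries 1, 2 and 3 from left to right and bars are group means. The 3 libraries at 7 weeks lie apart from the 3 at 2 days in every panel. Except for slc17a7.L, a fixed marker, the genes were picked among those whose groups do not overlap.

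Interneuron genes moved less evenly. Of 59 tested, 33 were called lower and 11 higher. The homeobox factor sp8.L, needed for granule and periglomerular cells in mice, went from 60.3, 80.0 and 66.3 CPM to 12.8, 23.0 and 21.7 CPM (log2 -1.84 ± 0.21 SE), and arx.S, another interneuron factor, had a log2 fold change of -1.30 ± 0.16 SE. The dopamine transporter slc6a3.S fell from 6.14, 5.04 and 6.01 CPM to 1.81, 2.80 and 1.80 CPM. Both copies of th, the rate-limiting enzyme of dopamine synthesis, were called lower, th.S with a log2 fold change of -0.62 ± 0.16 SE and th.L with -1.2 ± 0.24 SE, and neither call held when all 39 libraries were fitted together. The enzymes of GABA synthesis did not change together. The level of gad2.L was 408, 413 and 424 CPM at 2 days and 437, 301 and 327 CPM at 7 weeks, overlapping groups that were not called apart (log2 -0.23 ± 0.12 SE, adjusted p = 0.142). Without 7-week library 1 it was called lower (log2 -0.40, adjusted p = 0.00025). The .S copy of gad1.1 was called lower by 1.27-fold and the .L copy was not called (log2 0.18 ± 0.08 SE, adjusted p = 0.0788). The call of gad1.1.S was lost in the fit of all 39 libraries (adjusted p = 0.565), and with the copies summed the gad1.1 change was 0.01 and not called. The .L copy of the related gad1.2, gad1.2.L, was called higher, from 0.112, 0.194 and 0.206 CPM to 0.605, 0.645 and 0.469 CPM (log2 1.73 ± 0.46 SE, adjusted p = 0.0077).

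Genes of the synapse were mostly lower. Of 51 synaptic vesicle and release genes, 32 were called lower and 8 higher, and of 73 postsynaptic scaffold and receptor genes, 43 lower and 6 higher. In the fit of all 39 libraries 18 vesicle and release genes were called lower and 1 higher, and 22 postsynaptic genes lower and 2 higher. The vesicle protein syn2.S was at 187, 197 and 192 CPM at 2 days and at 52.3, 69.7 and 67.3 CPM at 7 weeks. Also picked by size in the vesicle list, rab3c.S was 2.47-fold lower. Against the balance of that list, cplx4.S (3.58-fold) and sypl2.S (2.89-fold) rose, from means of 0.285 and 1.00 CPM at 2 days. The kinase subunit camk2a.S, a main protein of the postsynaptic density, went from 26.1, 20.0 and 22.3 CPM to 6.25, 4.03 and 4.01 CPM (log2 -2.27 ± 0.17 SE, adjusted p = 8.13e-07). The scaffold homer1.S was 2.98-fold lower and the metabotropic glutamate receptor grm2.S 4.53-fold lower. NMDA receptor subunits were called in different directions. Both copies of grin2a were called higher, by 1.38-fold (.S) and 1.43-fold (.L). In the authors' TPM values, which are per length and not TMM scaled, the grin2a means were not higher at 7 weeks. They were 0.818 and then 0.756 TPM for .S, and 0.957 and then 0.898 TPM for .L. The .S copy of grin2b was called lower by 1.46-fold, and grin2b.L was not called (log2 -0.22 ± 0.18 SE). Without 7-week library 1 grin2b.L was called lower (log2 -0.40, adjusted p = 0.0457), and so were the summed copies (log2 -0.41, adjusted p = 0.0409). Neither the grin2a calls nor that of grin2b.S held in the fit of all 39 libraries. Among 88 voltage-gated channel and chloride transporter genes, 40 were called lower and 8 higher. In the fit of all 39 libraries 13 were called lower, near the share of all genes in that fit (5517 of 35690). The count of higher channel genes was 5, 5 and 4 without 2-day library 1, 2 or 3. The potassium channel kcna1.L went from 5.36, 6.77 and 6.44 CPM to 1.92, 2.11 and 1.74 CPM. The chloride exporter slc12a5, which sets the sign of the GABA response, was lower in both copies, slc12a5.S from 53.6, 54.2 and 54.9 CPM to 35.2, 35.9 and 34.3 CPM. Neither call held in the fit of all 39 libraries (adjusted p = 0.176 for slc12a5.S and 0.647 for slc12a5.L). Of 24 genes of the perineuronal matrix, the proteoglycan coat of neurons, 15 were called lower and 3 higher. The proteoglycans cspg5.S (3.81-fold) and ncan.S (2.41-fold) were lower. The largest change named in this list was a rise, of hapln2.S (3.92-fold), from a mean of 0.495 to 1.90 CPM.

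The most uniform fall among neuronal lists was in genes of immature neurons and growth cones, with 54 of 64 called lower and 1 higher, and a median log2 fold change of -0.77. The tubulin tubb2b.L, abundant in young neurons, was at 410, 373 and 407 CPM at 2 days and 55.6, 41.5 and 34.1 CPM at 7 weeks. It was 9.09-fold lower (log2 -3.18 ± 0.18 SE, adjusted p = 1.34e-07), and its level in control bulbs, 932, 1014 and 760 CPM, was above both. The neuronal tubulin tubb3.L fell 5.06-fold, and dpysl5.L, a growth cone protein of the collapsin response mediator family, 5.86-fold. The growth cone protein gap43.L went from 396, 379 and 390 CPM to 142, 207 and 160 CPM, and gap43.S changed alike (log2 -1.33 ± 0.11 SE). The microtubule regulator stmn2 fell less, by 1.83-fold (.L) and 1.77-fold (.S). Of 137 axon guidance genes, 74 were called lower and 11 higher. The ligand of Eph receptors efnb1.L went from 73.4, 73.9 and 75.5 CPM to 20.0, 29.9 and 26.2 CPM, and the semaphorin sema4a.S was 2.53-fold lower.

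Cell division genes were mostly lower at 7 weeks. Of 122 tested genes of mitosis and the cell cycle, 71 were called lower and 19 higher, with a median log2 fold change of -0.76. The mitotic kinase cdk1.S was at 6.39, 5.27 and 5.52 CPM at 2 days and at 0.348, 0.023 and 0.053 CPM at 7 weeks, after 35.0, 36.9 and 26.7 CPM in control bulbs. The log2 fold change between the injured groups was -5.68 ± 0.45 SE (adjusted p = 1.53e-06). The spindle motor kif11.L fell from 5.30, 4.63 and 5.498 CPM to 0.312, 0.0922 and 0.0707 CPM, and the cyclin ccnb1.2.L was 19.3-fold lower. Topoisomerase top2a.L, which untangles DNA before mitosis, went from 29.5, 20.1 and 24.9 CPM to 2.38, 0.541 and 0.734 CPM. The highest of the 7-week values in cdk1.S, kif11.L and top2a.L was that of library 1. The proliferation marker mki67 changed less, with log2 fold changes of -0.75 ± 0.14 SE (.L) and -0.73 ± 0.14 SE (.S), and neither call held in the fit of all 39 libraries (adjusted p = 0.182 for mki67.L and 0.155 for mki67.S).

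DNA replication genes did not follow the mitotic genes as a list. Of 88 tested, 36 were called higher and 14 lower (median log2 fold change 0.24). Summed over the list, the level was 919 to 923 CPM at 2 days and 1089 to 1216 CPM at 7 weeks. Both were below the 1856 to 2643 CPM of control bulbs. Enzymes that make DNA precursors were among the members called lower. The ribonucleotide reductase subunit rrm2.2.S went from 7.495, 5.92 and 6.70 CPM to 0.770, 0.507 and 0.203 CPM, and the thymidylate synthase tyms.L was 8.77-fold lower. The replication clamp pcna was not called in either copy. Its .S copy was at 17.3, 16.9 and 17.9 CPM at 2 days and 35.9, 14.2 and 15.7 CPM at 7 weeks, so library 1 alone was high, and without it the sign of the change turned (log2 -0.22). Named after their values were seen, the checkpoint kinase chek1.S (3.55-fold), the chromatin remodeller hells.L (2.79-fold) and rrm2.1.L (4.44-fold), another gene of the rrm2 name, were called higher. The histone mRNA binding protein slbp.S was called lower, but not once the copies were summed (log2 -0.13).

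Of 93 neural progenitor and proneural genes, 46 were called lower and 14 higher. The proneural factor neurog2.L went from 4.10, 4.51 and 4.28 CPM to 0.660, 0.841 and 0.734 CPM (log2 -2.51 ± 0.15 SE). Also picked by size, dbx1.L (6.55-fold) and neurod4.L (5.29-fold) were lower and btg2.S (5.63-fold) was higher. Of 53 DNA methylation and chromatin regulators, 24 were called lower and 4 higher. Of the subunits of Polycomb repressive complex 2, ezh2.L, its methyltransferase, fell from 28.6, 24.8 and 27.4 CPM to 2.80, 2.75 and 2.99 CPM, a 9.43-fold difference. Another subunit, suz12.S, rose from 169, 168 and 147 CPM to 306, 692 and 777 CPM (log2 1.87 ± 0.25 SE), with library 1 the lowest of the 7-week group. The maintenance DNA methyltransferase dnmt1 was not called in either copy, though dnmt1.S was called lower without 7-week library 3 (log2 -0.32, adjusted p = 0.0356).

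Glial lists differed in their balance. The shares of all genes were 25.3% lower and 25.6% higher. Of 39 radial glia and astroglia genes, 17 were called lower (43.6%) and 8 higher (20.5%). The intermediate filament nes.L, of neural stem cells, went from 12.7, 11.1 and 15.8 CPM to 3.19, 3.03 and 3.58 CPM, and the gap junction protein gja1.L rose from 9.96, 9.53 and 9.88 CPM to 25.9, 17.4 and 23.5 CPM. The radial glia lipid carrier fabp7.L was not called, at 505, 442 and 452 CPM and then 888, 377 and 431 CPM. Of 42 genes of the oligodendrocyte lineage and central myelin, 12 were called higher (28.6%) and 7 lower (16.7%). Neither copy of mbp, a main protein of central myelin, was called (log2 -0.33 ± 0.17 SE for mbp.L). The receptor gpr17.L, a marker of cells maturing into oligodendrocytes in mice, fell from 3.20, 2.93 and 2.78 CPM to 0.843, 1.02 and 0.681 CPM. Among 33 genes of peripheral and ensheathing glia, 12 were called lower (36.4%) and 5 higher (15.2%). Without 7-week library 2, 8 were called higher. The myelin protein prx.S was 4.67-fold higher and the neural crest factor foxd3.S 3.42-fold lower, and mpz, the main protein of peripheral myelin, was not called in either copy. The groups did not overlap in mpz.S (log2 -1.18 ± 0.60 SE, adjusted p = 0.128), which was called lower when only the 6 libraries compared were fitted (adjusted p = 0.0403). The lipid carrier pmp2.L was called lower, but not with copies summed (log2 -0.30).

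Microglia and macrophage genes were on balance lower, with 33 of 76 called lower and 12 higher. The summed level of 8 marker copies was 95.1 to 119 CPM at 2 days and 40.1 to 69.4 CPM at 7 weeks, against 30.7 to 37.6 CPM in control bulbs. Summed over all members of the list the groups overlapped, at 1045 to 1198 CPM at 2 days and 1271, 925 and 960 CPM at 7 weeks, with library 1 above every 2-day library. The receptor csf1r.S, on which microglia depend for survival, went from 6.84, 7.95 and 8.88 CPM to 5.06, 3.65 and 3.71 CPM (log2 -0.94 ± 0.15 SE). The complement starter c1qa.L fell from 24.6, 28.2 and 31.6 CPM to 14.2, 17.3 and 13.7 CPM. The actin regulator coro1a.S of blood-derived cells fell 3.31-fold. Members also rose. The receptor timd4.L, with which macrophages take up dying cells in mammals, went from 0.420, 0.265 and 0.514 CPM to 1.1, 1.66 and 1.73 CPM, a 3.69-fold difference. The galectin lgals3.S was 4.97-fold higher, but with its copies summed there was no call (log2 -0.02). The copies of apoe, the lipid carrier of glia and phagocytes, behaved unlike each other. The .S copy went from 51.5, 52.4 and 62.7 CPM to 9.22, 23.2 and 10.5 CPM and was called lower. The .L copy, at 54.7, 71.8 and 76.5 CPM and then 117, 36.9 and 63.6 CPM, was not called, and the summed copies were not called either (log2 -0.54).

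Interferon response genes, many of which act against viruses, were mostly lower. Of 45 tested, 37 were called lower and 4 higher, with a median log2 fold change of -1.16. The antiviral GTPase mx2.L was at 13.3, 9.53 and 19.0 CPM at 2 days and 0.861, 0.277 and 0.398 CPM at 7 weeks, close to its 0.332 to 0.568 CPM in control bulbs. The difference was 28.9-fold (log2 -4.85 ± 0.44 SE, adjusted p = 3.85e-06). The antiviral protein ifit5.L went from 28.2, 26.1 and 38.98 CPM to 5.11, 1.79 and 1.83 CPM. The interferon brake usp18.S was 9.15-fold lower, and nlrc5.L, which switches on class I antigen presentation in mammals, went from 6.19, 5.69 and 6.63 CPM to 1.91, 1.68 and 1.89 CPM. These genes were picked among called genes whose groups did not overlap.

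Complement genes were on balance higher. Of 26 tested, 12 were called higher (46.2%) and 5 lower (19.2%, below the 25.3% of all genes). The classical pathway component c4a.L was at 19.6, 25.6 and 21.7 CPM at 2 days, 15.1 to 21.9 CPM at 1 week and 2.18, 0.818 and 0.716 CPM at 7 weeks. Control bulbs held 0.986 to 2.00 CPM. In contrast cfb.L, the factor B of the alternative pathway, rose from 33.7, 48.9 and 52.5 CPM to 360, 260 and 271 CPM (log2 2.72 ± 0.35 SE), and cfi.L, the protease that inactivates C3b and C4b, rose 5.87-fold. Of 94 cytokine, chemokine and inflammation genes, 25 were called higher and 25 lower, near the shares of all genes. The chemokine ccl5.L fell from 4.22, 3.83 and 4.25 CPM to 1.04, 1.23 and 1.02 CPM. The transcription factor cebpd.L rose from 39.3, 70.2 and 57.4 CPM to 275, 513 and 565 CPM, an 8.11-fold difference, and stood at 7.03 to 17.2 CPM in control bulbs. Of 57 lymphocyte genes, 23 were called lower and 12 higher, and with at least 1 CPM in 3 libraries required 11 were called lower. Summed over all members of this list the groups overlapped, at 150, 130 and 143 CPM at 2 days and 148, 165 and 173 CPM at 7 weeks. Among 11 copies of lymphocyte markers 5 were called lower, both copies of cd4 and of cd8a among them, and 1 higher. The T cell coreceptor cd4.S had a log2 fold change of -1.06 ± 0.15 SE. Against the balance of the list, the checkpoint ligand cd274.L was at 2.14, 2.24 and 1.78 CPM at 2 days and 6.58, 8.18 and 9.78 CPM at 7 weeks, and the regulatory T cell factor foxp3.L was 2.62-fold higher.

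**Figure D3:**
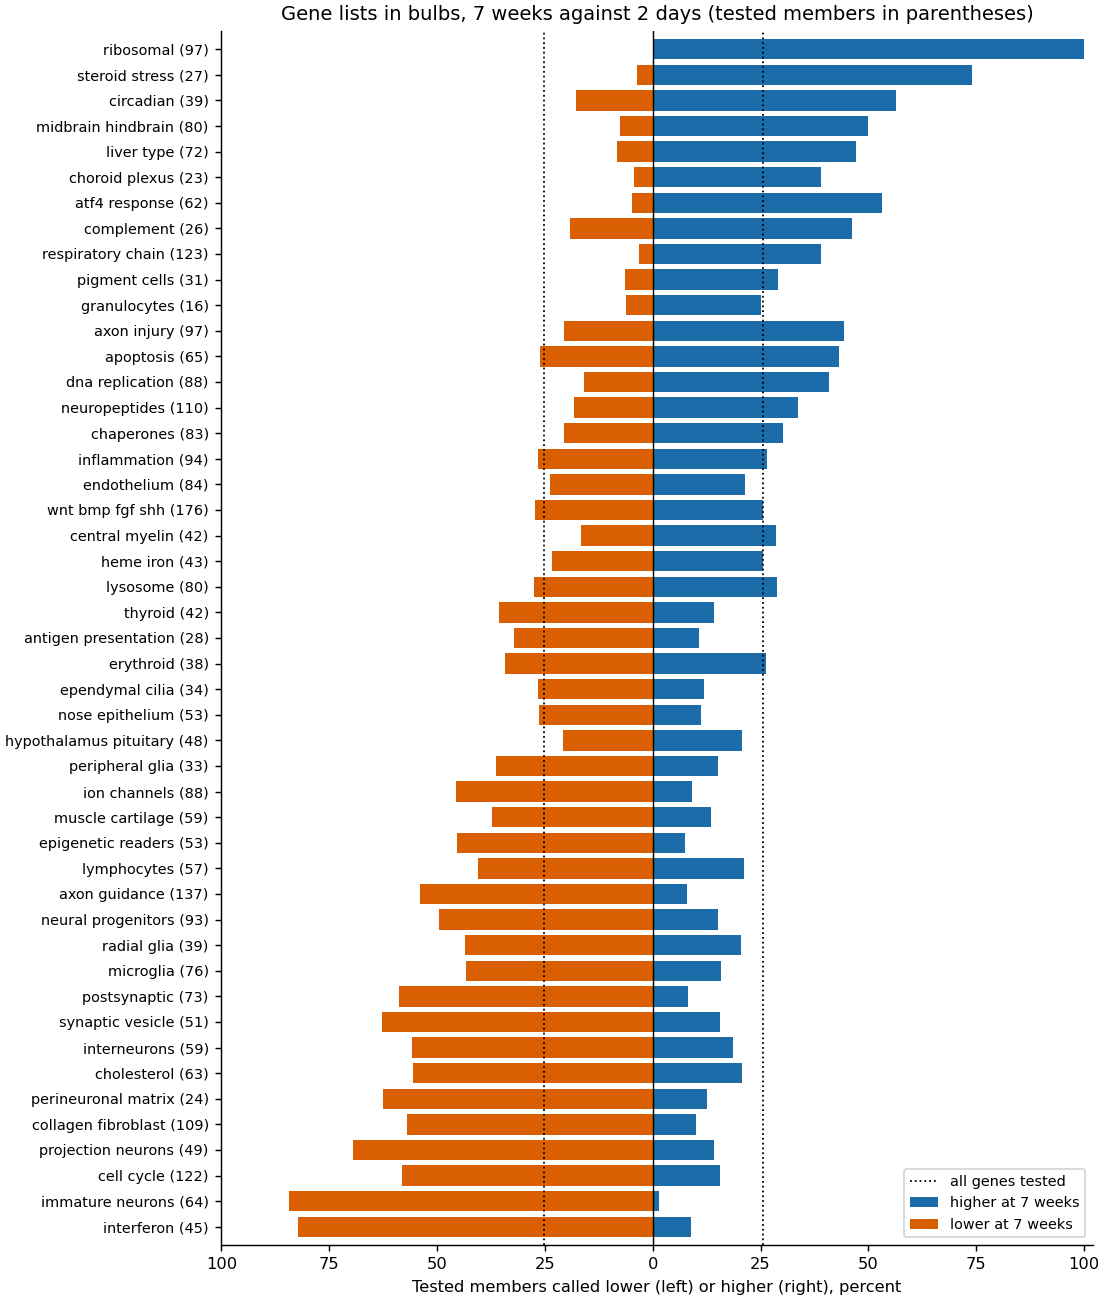
Share of the tested members of each of 47 gene lists that were called lower (left, orange) or higher (right, blue) at 7 weeks, in percent, ordered by median log2 fold change. Dotted lines mark the shares among all genes tested, 25.3% lower and 25.6% higher. Interferon and immature neuron genes are at the bottom and ribosomal protein genes at the top.

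Genes for cytosolic ribosomal proteins, the protein part of the translation machinery, were the most uniform list in the other direction. All 97 tested were called higher, with a median log2 fold change of 1.64. They took 6.38, 7.15 and 7.12% of counted reads at 2 days and 21.2, 14.6 and 13.2% at 7 weeks, beside 4.49 to 4.81% in control bulbs. In each of the 7-week libraries all 97 lay above the highest 2-day library, and the median difference was 2.24 in library 1, 1.37 in library 2 and 1.13 in library 3 (log2). Without library 1, 96 of the 97 were called. The large subunit gene rpl10a.S was at 1113, 1166 and 1210 CPM at 2 days and 10820, 4192 and 4311 CPM at 7 weeks (log2 2.47 ± 0.30 SE). The largest change of the list was that of rpl36.S, from 324, 390 and 374 CPM to 4500, 1230 and 1339 CPM. For rps29.L the log2 fold change of 2.52 became 1.47 without library 1. Among the other genes, split into 10 classes by length, the median log2 fold change was 0.08 in the shortest class, 0.15 in the third and -0.13 in the longest. The share of a class called lower was 17.7% in the shortest and 35.4% in the longest, and the share called higher was 22.9% in the shortest, 31.7% in the third and 16.8% in the longest. The part of gene length in the ribosomal result was not tested. Per length, in the authors' TPM values, the 5 named genes of highest level at 7 weeks were all ribosomal, led by rpl10a.S (11630 ± 4092 TPM, SD, n = 3), while at 2 days the tubulin tuba1b.L led (5261 ± 441 TPM, SD, n = 3). Leaving the ribosomal genes out of the fit changed the number of called genes from 16150 to 16034.

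**Figure D4:**
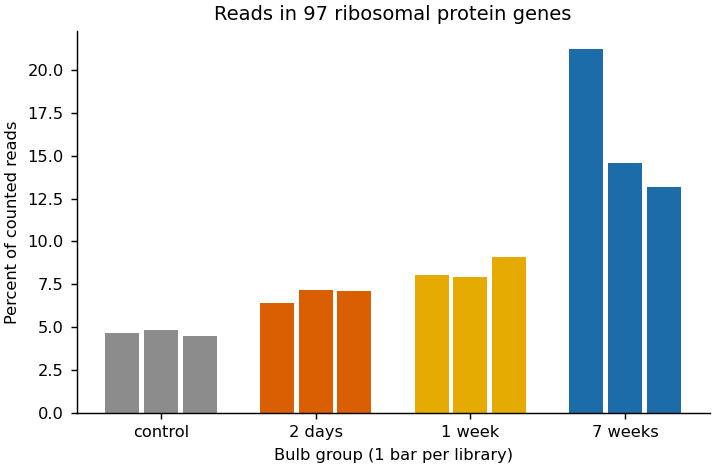
Percent of counted reads in the 97 ribosomal protein genes, 1 bar per library, in control bulbs and bulbs 2 days, 1 week and 7 weeks after transection. The 7-week libraries hold 13.2 to 21.2%, all above the 6.38 to 7.15% at 2 days.

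Of 123 nuclear genes of the respiratory chain, which feeds ATP synthesis in mitochondria, 48 were called higher and 4 lower. This list leaned on library 1, since without it 44 were called higher and 20 lower. The complex I subunit ndufv2.S rose evenly, from 2.27, 2.51 and 2.31 CPM to 5.46, 6.64 and 6.29 CPM. By contrast ndufb1.L was at 7.96, 7.85 and 7.69 CPM and then 40.6, 10.3 and 11.0 CPM, and its log2 fold change of 1.39 became 0.44 without library 1. The ndufb1.L call was also lost without 2-day library 3 (adjusted p = 0.0515). For uqcr11.S, of complex III, 1.32 became 0.72.

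Genes of the glucocorticoid response were mostly higher. Of 27 tested, 20 were called higher and 1 lower, with a median log2 fold change of 0.88. The glucocorticoid receptor nr3c1 was not called in either copy (log2 0.11 ± 0.13 SE for nr3c1.L). The Krüppel-like factor klf9.L, which both glucocorticoid and thyroid hormone induce in frogs, was at 7.40, 8.57 and 7.04 CPM at 2 days and 95.9, 37.8 and 100.9 CPM at 7 weeks, a 10.2-fold difference (log2 3.35 ± 0.32 SE, adjusted p = 6.73e-06). Control bulbs held 7.92 to 10.01 CPM. The mTOR inhibitor ddit4.S went from 29.4, 29.6 and 30.5 CPM to 125, 86.6 and 110 CPM. The phosphatase dusp1.S rose 3.33-fold and pdk4.L, which shuts off pyruvate oxidation, 2.76-fold. The thyroid hormone list did not share this direction, with 15 of 42 called lower and 6 higher, klf9.L being on both lists. With only the 6 libraries compared 9 thyroid hormone genes were called lower, beside 5967 of all 31052 genes. In the fit of all 39 libraries 8 were, beside 5517 of all 35690 genes. Among 39 clock genes, 22 were called higher and 7 lower. The repressor cry2.L rose from 21.5, 16.2 and 12.6 CPM to 53.7, 72.2 and 67.8 CPM, and the nuclear receptor nr1d1.L was 3.56-fold higher. The hour at which bulbs were collected is not in the labels, so its part in these values was not tested.

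Of 62 genes of the ATF4 response, which cells switch on when amino acids run short or proteins misfold, 33 were called higher and 3 lower. Summed over the list, the level was 2494 to 2629 CPM at 2 days and 3281 to 4317 CPM at 7 weeks. It was 3787 to 4971 CPM in control bulbs and 2576 to 2696 CPM at 1 week, so the 7-week range overlapped that of controls. The hormone stc2.S went from 0.993, 1.29 and 1.06 CPM to 20.9, 13.7 and 16.8 CPM, and the transcription factor ddit3.L from 7.10, 7.00 and 5.75 CPM to 58.8, 18.6 and 42.6 CPM. The glutathione-degrading enzyme chac1.L rose 5.43-fold, to 43.7, 19.4 and 30.7 CPM, and was at 79.2, 52.3 and 8.52 CPM in control bulbs, which differed widely among themselves. Of 97 genes linked to axon injury and regrowth, 43 were called higher and 20 lower. Summed over the list the level fell, from 5225, 4959 and 5098 CPM at 2 days to 4389, 4262 and 4120 CPM at 7 weeks. The mean log2 level per member rose, from 3.36 to 3.43 at 2 days to 3.62 to 3.70 at 7 weeks. The members did not act alike, with gap43 and the galectin lgals1.L (10.6-fold) lower and the stress gene gadd45a.L higher, from 0.629, 0.778 and 0.740 CPM to 4.80, 3.19 and 5.27 CPM. Of 65 caspase, BCL2 family and p53 target genes, 28 were called higher and 17 lower.

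Cholesterol synthesis and uptake genes were mostly lower, with 35 of 63 called lower and 13 higher (median log2 fold change -0.50). The epoxidase sqle.S, an early enzyme of the sterol branch, went from 39.5, 37.6 and 44.4 CPM to 10.4, 6.35 and 7.12 CPM, and was at 77.1 to 95.01 CPM in control bulbs. The level at 1 week, 9.20 to 12.2 CPM, was already near that at 7 weeks. A later enzyme of the branch, msmo1.L, was 5.08-fold lower. Liver-type secreted and metabolic genes went the other way, with 34 of 72 called higher and 6 lower (10 lower without 7-week library 1). The gluconeogenic enzyme fbp1.L rose from 1.82, 2.40 and 1.98 CPM to 13.4, 7.08 and 8.06 CPM. The tyrosine breakdown enzyme fah.S was 5-fold higher, and the lipoprotein apoa1.L, at 1.24, 0.954 and 0.863 CPM, reached 5.06, 4.83 and 4.81 CPM. Prothrombin, f2.L, was 3.81-fold lower.

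Matrix genes of fibroblasts and meninges held the largest fall among the genes named here. Of 109 collagen and fibroblast genes, 62 were called lower and 11 higher, with a median log2 fold change of -0.62. Summed over all members of the list the groups overlapped, at 3690, 4465 and 4036 CPM at 2 days and 3961, 5365 and 3442 CPM at 7 weeks. The mean log2 level per member was 3.00 to 3.26 at 2 days and 2.37 to 2.54 at 7 weeks. The fibrillar collagen col1a1.L was at 190, 77.0 and 346 CPM at 2 days and 1.23, 2.74 and 1.08 CPM at 7 weeks, a 121-fold difference (log2 -6.92 ± 0.59 SE, adjusted p = 5.22e-06). The 2-day libraries differed widely among themselves, and col1a2.L kept their order, at 190, 93.5 and 333 CPM. Keratin reads moved with them. The keratin krt2l.S, an epithelial filament gene, was at 27.3, 5.85 and 63.0 CPM and krt15.L at 8.01, 1.45 and 16.3 CPM in the same libraries, against under 1 CPM in every control bulb. In control bulbs col1a1.L was at 157, 154 and 122 CPM and col1a2.L at 208, 211 and 172 CPM. The part of skin or other tissue in the collagen result was not tested. Library 2 at 2 days was the lowest in keratin but not in the bone matrix gene ibsp.L, at 0.182, 2.24 and 3.49 CPM at 2 days. Control bulbs held 0.0098 to 0.0811 CPM of ibsp.L. The collagen col3a1.S was more even at 2 days, at 19.3, 15.5 and 23.8 CPM, and fell to 0.367, 0.461 and 0.318 CPM (log2 -5.68 ± 0.21 SE). Its level in control bulbs was 94.4 to 116 CPM. All 12 copies of the 6 fibroblast and meninges markers were called lower, with a sum of 347 to 1230 CPM at 2 days and 28.4 to 61.4 CPM at 7 weeks. The basement membrane collagen col4a1.L was 3.68-fold lower and the cartilage collagen col2a1.S 6.51-fold lower.

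Red cell genes fell in summed level, from 1313, 1349 and 1438 CPM at 2 days to 559, 461 and 427 CPM at 7 weeks. Of 38 tested, 13 were called lower (34.2%) and 10 higher (26.3%, near the 25.6% of all genes). In the fit of all 39 libraries 7 were lower and 5 higher, beside 5517 and 6174 of all 35690 genes. The globin hbd.S was at 638, 702 and 768 CPM at 2 days and 49.3, 27.2 and 15.5 CPM at 7 weeks (log2 -4.52 ± 0.36 SE), and hbg2.L went from 143, 121 and 140 CPM to 6.89, 1.02 and 0.292 CPM. The red cell form of the first heme enzyme, alas2.1.L, fell 9.13-fold. Of 10 copies of red cell markers 8 were tested, and 5 were called lower and 2 higher. Summed over the 10 copies, the level was 1510 to 1930 CPM in control bulbs and 867 to 1010 CPM at 2 days. It was 188 to 293 CPM at 1 week and 31.8 to 89.0 CPM at 7 weeks. In contrast rhd.L, of the Rh blood group family, rose 13.9-fold, from 0.0699, 0.0707 and 0.103 CPM to 1.41, 1.198 and 0.946 CPM, a rise not called with its copies summed (log2 0.37).

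Markers of brain regions beyond the bulb also differed. Of 80 genes of midbrain, hindbrain and diencephalon patterning, 40 were called higher and 6 lower, with a median log2 fold change of 0.70. Their mean log2 level was 2.43 to 2.75 at 2 days and 2.87 to 3.05 at 7 weeks. It was 2.91 to 3.07 in control bulbs and 3.12 to 3.46 at 1 week, so the 2-day bulbs were the low ones. Summed over the list the groups overlapped, at 1454, 1328 and 1308 CPM at 2 days and 1181, 1634 and 1482 CPM at 7 weeks. The hindbrain factor hoxa2.S was at 0.643, 0.460 and 0.0514 CPM at 2 days and 1.25, 1.48 and 2.48 CPM at 7 weeks, and the noradrenaline enzyme dbh.S rose 4.06-fold. Pituitary markers, 15 copies of 7 genes, summed to 651 to 858 CPM at 2 days and 965 to 1380 CPM at 7 weeks, with 7 copies called higher and 2 lower. The wider list of hypothalamus and pituitary genes had 10 of 48 called higher and 10 lower (20.8% each, below the shares of all genes), with a median log2 fold change of -0.17. Its count of lower members was 4 without 2-day library 3, 21 without 7-week library 2 and 6 without 7-week library 3. Among the pituitary markers the hormone subunit cga.L went from 3.89, 3.64 and 4.75 CPM to 22.6, 15.6 and 11.3 CPM, and prl.1.S, a prolactin, from 0.839, 2.23 and 1.45 CPM to 31.0, 10.2 and 9.52 CPM. How much tissue behind the bulb each dissection took in was not tested. Of 110 neuropeptide and receptor genes, 37 were called higher and 20 lower. In the fit of all 39 libraries 12 were higher and 4 lower, both below the shares of all genes (6174 and 5517 of 35690). With 2-day library 2 alone at 2 days both counts were near the shares of all genes. The feeding peptide agrp.L rose from 10.5, 16.2 and 15.1 CPM to 77.9, 74.5 and 51.7 CPM, and oxt.L, the oxytocin-family peptide, fell from 19.4, 17.5 and 23.1 CPM to 5.06, 1.92 and 1.76 CPM.

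Among the 10 called genes of largest rise were several outside these lists. The secreted glycoprotein olfm4.L was at 2.39, 4.37 and 2.13 CPM at 2 days and 122, 33.6 and 57.6 CPM at 7 weeks (log2 4.61 ± 0.52 SE). The anion transporter slc26a9.S went from 1.03, 2.40 and 0.586 CPM to 25.2, 33.8 and 31.0 CPM. The enzyme genes hpd-like.2.L and g6pc-like.1.L, named for their likeness to a tyrosine breakdown enzyme and to glucose-6-phosphatase, were 17.0-fold and 16.1-fold higher. Genes best known from germ cells were tex14.L (14.6-fold) and piwil1.L, which in animals acts with small RNAs against transposons. The level of piwil1.L was 0.587, 0.512 and 0.452 CPM and then 5.004, 5.69 and 8.73 CPM. The rise of dmgdh.L, a choline breakdown enzyme, was 18.4-fold for that copy alone, and with its copies summed there was none called (log2 0.04). The amino acid sensor slc38a9.L rested on 7-week library 1, at 116, 5.52 and 12.7 CPM, and its log2 fold change of 3.81 became 1.52 without it.

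The noses of the same transection series gave the change between the same times in another tissue. In a fit of 24 bulb and nose libraries, the difference of the changes, bulb minus nose, was called for 6083 of 34508 genes tested (17.6%), positive for 2596 (7.52%) and negative for 3487 (10.1%). Of the 20 genes with the largest bulb changes, 12 differed from the nose, all with the larger change in the bulb. These genes were picked for their size in the bulb, which favours that direction. The interferon gene mx2.L changed by -4.96 in bulbs and -1.29 in noses, where it stayed at 28.3 to 43.7 CPM at 7 weeks. The mitotic kinase cdk1.S changed by -5.73 in bulbs and -2.44 in noses. The enzyme g6pc-like.1.L rose by 3.92 in bulbs, and its change of 0.75 in noses was not called (adjusted p = 0.144). For btg5.L, piwil1.L and krt2l.S the nose value was the larger, and the difference was not called.

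**Figure D5:**
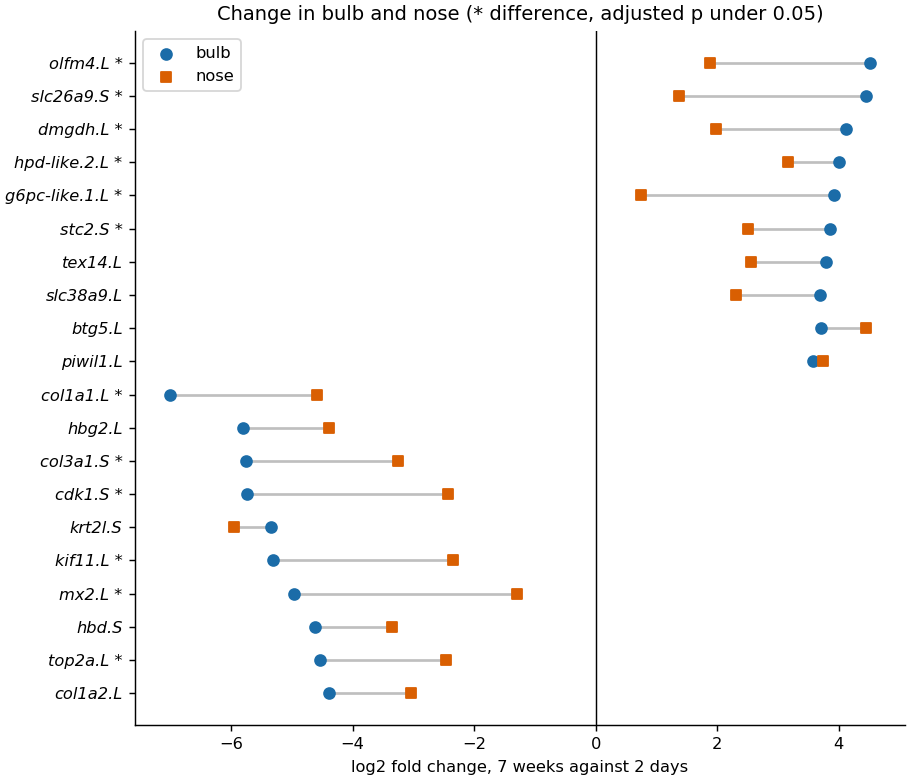
Log2 fold change from 2 days to 7 weeks in bulbs (circles) and noses (squares) for the 20 named genes of largest change in bulbs, fitted in 24 libraries. A star marks the 12 genes whose difference between the tissues had an adjusted p under 0.05.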

How the data were processed

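RNA of whole bulbs was sequenced, and the titles of the samples give the groups. The submitters' processing notes name bcl2fastq 2.17.1.14, STAR 2.5, featureCounts and Subread 1.5.0, without their order. The build is not given in the sources used here. The raw counts per gene deposited by the authors were the input of every test, and the TPM values deposited by the authors served for levels between genes. Columns name the group and a number but no sample, so each library is known by its group and column number. Of 37240 lines, 17 repeated identifiers with equal counts were dropped, leaving 37223 genes, of which 18180 match a RefSeq symbol.

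The 12 bulb libraries were fitted together in R 4.3.3 with edgeR 4.0.16 (quasi-likelihood test, robust, TMM, filterByExpr with minimum count 10 and total 15), with Benjamini-Hochberg adjustment over all genes. Standard errors come from the F statistic. The difference from noses used 24 libraries. Alternatives included DESeq2 1.42.0. The members and the 47 lists were chosen with earlier results of these data known. Named genes were the 10 largest called changes in each direction (mean of at least 5 CPM, groups not overlapping), the 4 largest called changes of each list (at least 1 CPM, groups not overlapping) and fixed markers. Not every gene picked by these rules is printed. Outside these rules the text names nr3c1, the cell type markers tbx21, cd4 and cd8a, and chek1.S, hells.L and rrm2.1.L. Lists were matched by symbol without .L, .S or copy number. A second deposited table, of normalised values, was not used here. Some items are not reported here.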

Additional observations from a re-analysis of the deposited data

Results flagged for a closer look

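The change from 2 days to 7 weeks differed between bulb and nose, by the edgeR quasi-likelihood test of the difference itself, for 12 of the 20 genes named for their size in the bulb. The log2 difference, bulb minus nose, was 2.62 for olfm4.L, 3.08 for slc26a9.S, 2.14 for dmgdh.L, 0.84 for hpd-like.2.L, 3.17 for g6pc-like.1.L and 1.36 for stc2.S. It was -2.42 for col1a1.L, -2.50 for col3a1.S, -3.29 for cdk1.S, -2.96 for kif11.L, -3.66 for mx2.L and -2.08 for top2a.L. Groups of 3 libraries are too small to test for single outlying libraries.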

How the results depend on the processing

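Called genes numbered 16143 with RLE scaling, 16709 with the DESeq2 Wald test, 16049 without the low-count filter, 14763 with at least 1 CPM in 3 libraries, 12593 with only the 6 libraries compared and 11691 with all 39. Leaving out 1 library gave 13424 to 17815 called, 6655 to 8750 higher and 6769 to 9065 lower. For the difference from noses the range was 4507 to 7075. With 2-day library 2 as the only 2-day library, an alternative chosen after seeing the data, 8338 were called, 3863 higher and 4475 lower. The immature neuron, interferon, cell cycle and projection neuron lists were then lower at shares above that of all genes. The ribosomal list was higher at a share above that of all genes, and the respiratory chain list at one below it. Without 7-week library 1, 8750 of 32129 genes tested were called higher and 9065 lower. Lower were 61 immature neuron, 36 interferon, 71 cell cycle and 34 projection neuron genes, and higher 96 ribosomal and 44 respiratory chain genes. With all 39 libraries 6174 of 35690 genes tested were called higher and 5517 lower. Higher were 23 axon injury, 23 DNA replication, 25 midbrain and hindbrain, 11 cell cycle, 6 complement and 4 interneuron genes. Lower were 47 axon guidance, 10 radial glia, 8 thyroid hormone and 7 perineuronal genes. With copies summed, 11313 of 22549 genes were called, and list counts shrank since a pair then counts once. With the column number as replicate block, 15550 were called. Among the genes named, mpz.S was then called lower (log2 -1.25, adjusted p = 0.0158). Deviations of same-numbered libraries from their group means had correlations of -0.076, -0.011 and -0.171. With 3 libraries a group, these values cannot settle whether the numbers mark pairs. The sign turned with copies summed for gad1.1.S (0.012), slc12a2.L (0.11), pcna.S (-0.032), apoe.L (-0.54) and lgals3.S (-0.024). Leaving out 1 library moved fabp7.L between -0.21 and 0.50, pcna.S between -0.22 and 0.56 and apoe.L between -0.43 and 0.42, each negative without 7-week library 1, and apoe.L was also negative without 2-day library 1 (-0.036). In the difference from noses it moved slc38a9.L between -0.83 and 2.47 and piwil1.L between -0.45 and 0.015, the first negative and the second positive without 7-week library 1. The piwil1.L difference was also positive with the stricter filter (0.031) and with all 39 libraries (0.034). The causes were not tested.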
